A study of Mus musculus with 4 samples.

Results

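A set of 9 transcription factors and cofactors that pattern or drive growth of the palatal shelf was followed in Foxf2-/- palatal mesenchyme: Shox2, Barx1, Meox2, Mn1, Pax9, Osr1, Osr2, Lhx6 and Lhx8. They were chosen by name for their roles in the palate, with earlier results of these data known. All 9 were found among the 22096 gene symbols of the expression tables. RNA-seq had been done on 4 littermate mouse embryos of mixed background at E13.5 (embryonic day 13.5), 1 sequencing library each. The 2 mutants were Foxf2-/-Osr2RFP/+ (embryos 1 and 2), and the 2 controls were 1 Osr2RFP/+ embryo with intact Foxf2 and 1 Foxf2+/-Osr2RFP/+ heterozygote, so that each control genotype was represented by a single embryo. All 4 embryos carried the Osr2RFP knock-in allele, which places a red fluorescent protein under the Osr2 locus, and the libraries were made from RFP-positive cells sorted from microdissected palatal shelves. Osr2 is therefore both a gene described here and the gene behind the sort, and its level in the sorted cells is partly set by the gate. Foxf2 was removed from the whole embryo and not from the palate alone. The shelves are labelled as embryonic palate with no division along their length, so the level of a regional gene is an average over anterior and posterior cells, and fewer cells of a type cannot be told apart from less RNA per cell.

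The palatal shelves grow from the maxillary processes as neural crest-derived mesenchyme covered by epithelium, and they are patterned from anterior to posterior and from the oral to the nasal side before they lift above the tongue and fuse. Shox2, a homeodomain protein, marks the anterior mesenchyme, while the homeodomain proteins Barx1 and Meox2 and the transcriptional cofactor Mn1 mark the posterior mesenchyme. Pax9 (a paired box protein), the zinc finger proteins Osr1 and Osr2, and the LIM homeodomain proteins Lhx6 and Lhx8 act more broadly in shelf growth, and Osr2 is strongest on the oral side. Loss of Shox2, Meox2, Mn1, Pax9, Osr2, or Lhx8 causes cleft palate in mice, fully or in part of the embryos. Foxf2, which encodes a forkhead protein, is itself expressed in the palatal mesenchyme, and the question here is whether these regulators differed in level without it.

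Levels are given as FPKM, fragments per kilobase of transcript scaled to the mapped fragments of the library, which the authors estimated for each RefSeq transcript and which were added up for each gene. Differences are in log2(FPKM + 0.1), with limma run over the 11128 genes that averaged at least 1 FPKM and p-values adjusted by the Benjamini-Hochberg method over all of them. None of the 9 genes passed an adjusted p-value of 0.05, and the adjusted p-values from limma ran from 0.192 to 0.866, in a comparison that called 7 genes in all (0.0629%). Without adjustment, 4 of the 9 genes had a limma p-value below 0.05, against 13.1% of the genes tested. Shox2 and Meox2 were lower in both mutants than in both controls, and Pax9 and Osr1 were higher. With 2 embryos against 2, an exact permutation test cannot give a two-sided p-value below 0.333. It gave that value for these 4 genes and for Lhx6, as it does for any gene whose groups do not overlap.

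The targeted gene was checked first. Foxf2 was at 85.4 FPKM in the Osr2RFP/+ embryo, 45.1 in the heterozygote, and 1.41 and 2.28 in mutants 1 and 2, with a log2 fold change of -5.03 ± 0.31 (SE) and an adjusted p-value of 0.00405 from limma. The call was lost with no filter on low values, without a variance trend, with a robust fit and with the number of null alleles as a linear term (limma adjusted p-values 0.162, 0.0522, 0.107 and 0.0596). The 4 labels and the Foxf2 levels therefore go together, and the heterozygote lies between the other genotypes. The sorted cells had the markers of facial mesenchyme: all 11 listed genes were above 0 FPKM, with Prrx1, a homeobox gene of limb and facial mesenchyme, at 115.8 to 139.9 FPKM. The summed level of those 11 markers was 1071 and 892 FPKM in the control embryos and 829 and 919 FPKM in the mutants. The sums overlap, but of the 10 markers tested, 6 were lower in both mutants and none higher, beside 35.8% and 9.88% of all genes. None was called, and their median log2 fold change was -0.12. The lowest were Col3a1 at -0.45 (limma adjusted p-value 0.329) and Twist1 at -0.30 (limma adjusted p-value 0.287), beside -0.38 for Meox2. Col1a1 and Alx4 were above 0 (0.17 and 0.12) with overlap between the groups. The other markers tested lay between -0.20 and -0.07. The 6 endothelial markers were all under 1 FPKM in every embryo, and summed epithelial markers were at 7.38 to 9.12 FPKM. Summed blood markers, mostly globins, differed widely between embryos, at 297 and 1837 FPKM in the control embryos and 1598 and 4375 FPKM in the mutants. Summed neural and Schwann cell markers were at 4.22 and 5.50 FPKM in the control embryos and 10.0 and 6.67 FPKM in the mutants, summed myeloid markers at 18.3 to 29.0 FPKM, and summed skeletal muscle markers at 1.97 and 2.32 FPKM against 1.2 and 0.97 FPKM. The part of these other cells, and of the lower mesenchyme markers, in the differences below was not tested. Estimated coverage of the 9 genes was 39.9 to 370.2 reads per base, and the libraries differed at most 1.19-fold in relative depth, but their depth in reads is unknown.

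Shox2 has 5 exons at chr3:66777191-66785693 (minus strand; all positions are in mm9). It was at 114 FPKM in the Osr2RFP/+ embryo, 73.4 in the heterozygote, and 47.7 and 63.7 in the mutants. Both mutants were below both controls, and the heterozygote was nearer to the mutants than to the Osr2RFP/+ embryo. The log2 fold change was -0.73 ± 0.21 (SE), with a 95% confidence interval of -1.22 to -0.24, an unadjusted p-value of 0.00955 and an adjusted p-value of 0.288 from limma. The difference was -1.04 against the Osr2RFP/+ embryo and -0.41 against the heterozygote on the log2 scale, so 60.4% of the first was already present in the heterozygote. Shox2 was also the most variable of the 9 genes, with a range of 1.2 on the log2 scale over the 4 embryos, and the mutants themselves differed by 0.42. Leaving out the Osr2RFP/+ embryo gave -0.41 and leaving out the heterozygote gave -1.04, so the size of the Shox2 difference depends on which control is used.

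**Figure D1:**
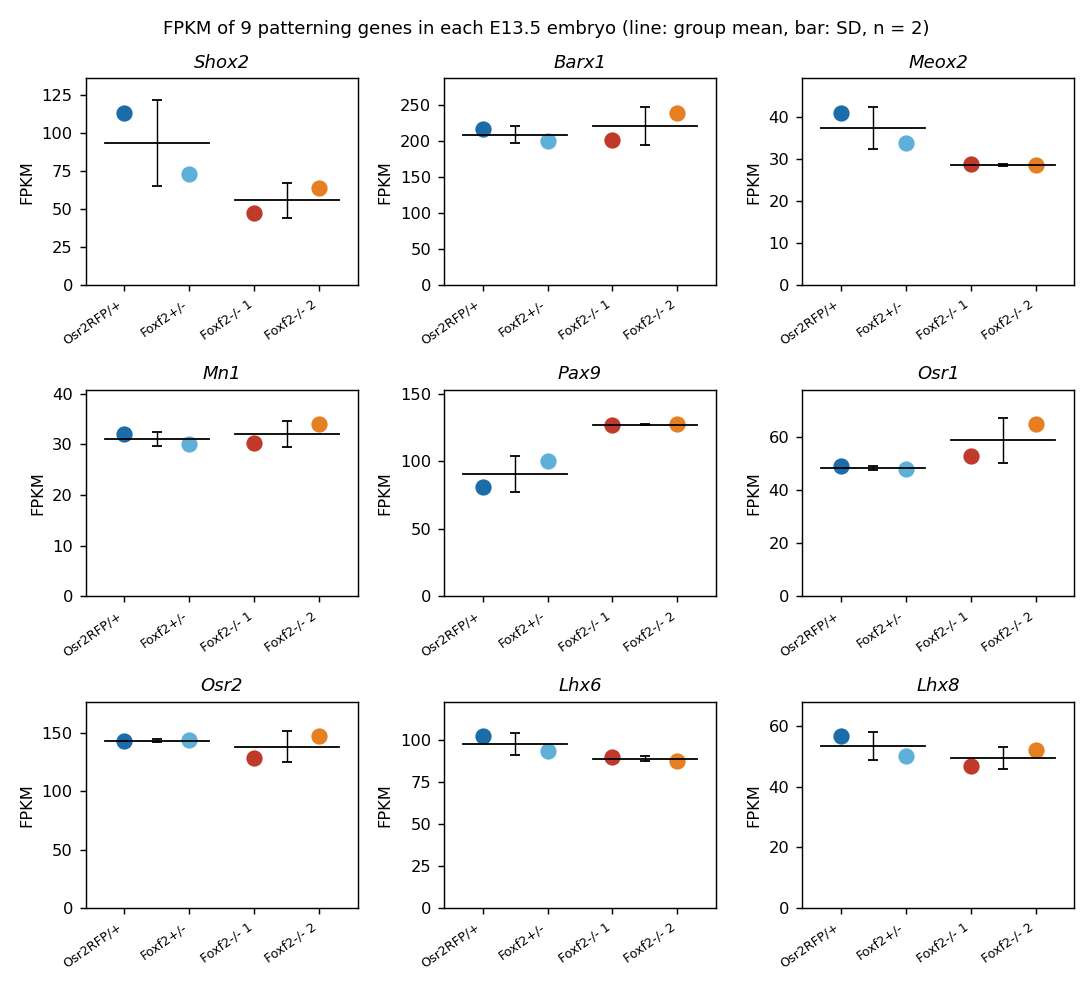
FPKM (vertical axes, from 0) of the 9 genes in the 4 embryos; the horizontal line is the mean of each group and the bar its SD (n = 2). Shox2 and Meox2 lie lower in both Foxf2-/- embryos, Pax9 and Osr1 lie higher, and Barx1, Mn1, Osr2 and Lhx8 overlap between the groups.

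Barx1 and Mn1, of the posterior mesenchyme, overlapped between the groups. Barx1, on chr13:48758405-48761876 (plus strand, 4 exons), was at 217 and 200.1 FPKM in the Osr2RFP/+ and Foxf2+/- controls and at 201 and 239 FPKM in the mutants. The groups overlap, and the log2 fold change was 0.07 (95% confidence interval -0.18 to 0.33; limma adjusted p-value 0.813). Barx1 lies 17.04 Mb from Foxf2 on the same chromosome. Mn1, on chr5:111847186-111886045 (plus strand, 2 exons), was at 31.98 and 30.03 FPKM in the control embryos and 30.3 and 33.9 FPKM in the mutants, and its log2 fold change was 0.05 (95% confidence interval -0.17 to 0.27; limma adjusted p-value 0.866). These intervals leave out a change of 1.5-fold (0.58 on the log2 scale) in either direction for both genes.

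Meox2, also a posterior gene, was lower in both mutants. It lies on chr12:37835133-37906115 (plus strand, 3 exons) and was at 41.0 FPKM in the Osr2RFP/+ embryo, 33.9 in the heterozygote, and 28.7 and 28.5 in the mutants. The 2 mutants were almost equal, and the heterozygote was again between them and the Osr2RFP/+ embryo. The log2 fold change was -0.38 ± 0.11 (SE; 95% confidence interval -0.63 to -0.13), with an unadjusted p-value of 0.00843 and an adjusted p-value of 0.279 from limma. Against the single controls it was -0.52 (Osr2RFP/+) and -0.25 (heterozygote).

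Pax9, a paired box factor of the palate, teeth and pharyngeal pouches, went the other way. It lies on chr12:57796626-57812217 (plus strand, 5 exons) and was at 81.2 FPKM in the Osr2RFP/+ embryo, 100.1 in the heterozygote, and 127.3 and 127.5 in the mutants. The mutants were above both controls and differed from each other by under 1 FPKM. The log2 fold change was 0.50 ± 0.11 (SE; 95% confidence interval 0.24 to 0.76), with an unadjusted p-value of 0.00254 and an adjusted p-value of 0.192 from limma, the lowest of the 9 genes. The difference was 0.65 against the Osr2RFP/+ embryo and 0.35 against the heterozygote.

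The odd-skipped related genes encode closely related zinc finger proteins with partly shared expression. Osr1 (chr12:9581248-9588306, plus strand, 3 exons) was at 49.1 and 48.1 FPKM in the control embryos and 52.8 and 64.9 FPKM in the mutants. Both mutants were higher, but they differed from each other by far more than the controls did. The log2 fold change of Osr1 was 0.27 ± 0.11 (SE), with a 95% confidence interval of 0.01 to 0.53, an unadjusted p-value of 0.0443 and an adjusted p-value of 0.369 from limma. Osr2 (chr15:35225867-35233060, plus strand, 4 exons) was at 143 and 144 FPKM in the control embryos and 129 and 147 FPKM in the mutants, and the mutants lay on either side of the controls. Its log2 fold change was -0.06, with a 95% confidence interval of -0.28 to 0.17 and an adjusted p-value of 0.833 from limma. Since RFP from the Osr2 locus was the basis of the sort, that value describes cells that had already been chosen for Osr2 expression.

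Lhx6 and Lhx8, which act together in the jaw and palate mesenchyme, differed little. Lhx6 (chr2:35937473-35960928, minus strand, 10 exons) was at 102 and 93.2 FPKM in the control embryos and 90.1 and 87.7 FPKM in the mutants. The mutants were lower by a narrow margin, and the log2 fold change was -0.14 (95% confidence interval -0.34 to 0.07; limma adjusted p-value 0.552). Lhx8 (chr3:153969258-153993524, minus strand, 9 exons) was at 56.7 and 50.2 FPKM in the control embryos and 46.8 and 52.1 FPKM in the mutants. There the groups overlap, and the log2 fold change was -0.11 (95% confidence interval -0.35 to 0.12; limma adjusted p-value 0.671). Leaving out 1 embryo moved Lhx6 between -0.20 (without the heterozygote) and -0.068 (without the Osr2RFP/+ embryo), and Lhx8 between -0.20 and -0.024 in the same way. Both intervals leave out a 1.5-fold change.

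In all, 5 of the 9 genes did not overlap between the groups, 2 higher in the mutants (Pax9 and Osr1) and 3 lower (Shox2, Meox2 and Lhx6). Such a separation was common over the 11128 genes tested: 45.7% did not overlap, with 9.88% higher and 35.8% lower in the mutants. Lower values in the mutants were the more frequent, with a median log2 fold change of -0.08 over all genes and 70.3% of the genes below 0. The median of the 9 genes was -0.06, with 5 of the 9 below 0. After median-of-ratios scaling, which removes that shift, 42.6% of all genes did not overlap, 21% higher and 21.5% lower. The log2 fold changes were then -0.65 for Shox2, -0.30 for Meox2, 0.58 for Pax9 and 0.35 for Osr1, and the adjusted p-values from limma were 0.329, 0.347, 0.161 and 0.25. Under that scaling Lhx6 overlapped (-0.06), Barx1 and Mn1 no longer did (0.15 and 0.13, limma adjusted p-values 0.540 and 0.568), and the sign of Osr2 changed to 0.02.

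**Figure D2:**
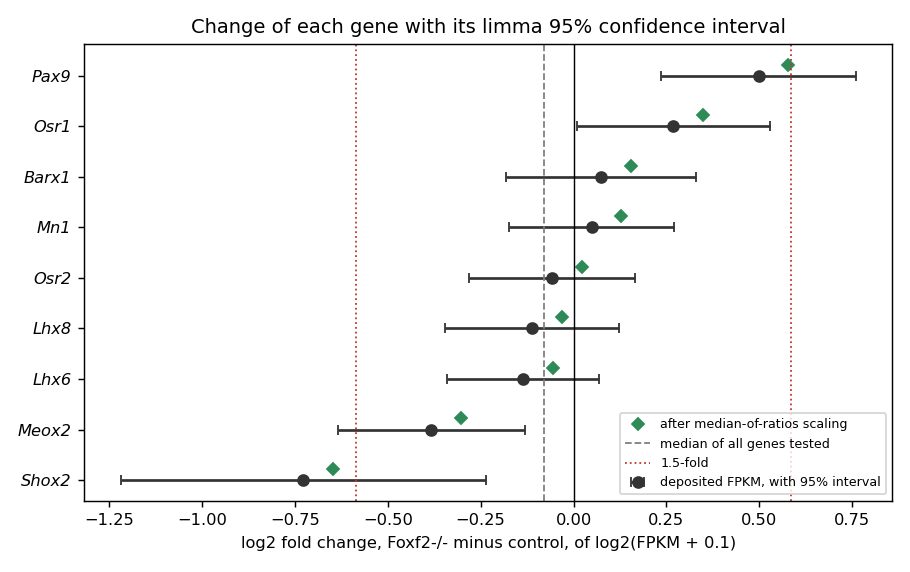
Log2 fold change of each gene (Foxf2-/- minus control, horizontal axis) with its 95% confidence interval from limma (black), and the same after median-of-ratios scaling (green). The intervals of Shox2, Meox2, Pax9 and Osr1 leave out 0, and those of Barx1, Mn1, Osr2, Lhx6 and Lhx8 hold it.

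None of the 9 genes differed by more than 1.5-fold from both controls, a size that 1.37% of all genes reached (0.71% higher and 0.665% lower). Against the Osr2RFP/+ embryo alone, Shox2 and Pax9 were past 1.5-fold, 2 of 9 genes beside 5.09% of all genes, and against the heterozygote none was, beside 2.58%. The 2 comparisons share the mutants, and each rests on 1 control embryo. In 4 of the 9 genes (Shox2, Meox2, Pax9 and Lhx6) the heterozygote lay between the Osr2RFP/+ embryo and both mutants, as it did in 28.7% of all genes (5.05% upward and 23.7% downward). The heterozygote was at 60.4% of the log2 distance from the Osr2RFP/+ embryo to the mutant mean for Shox2, 52.6% for Meox2, 46.5% for Pax9 and 66.4% for Lhx6. With 1 heterozygote, that position has no replicate check.

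**Figure D3:**
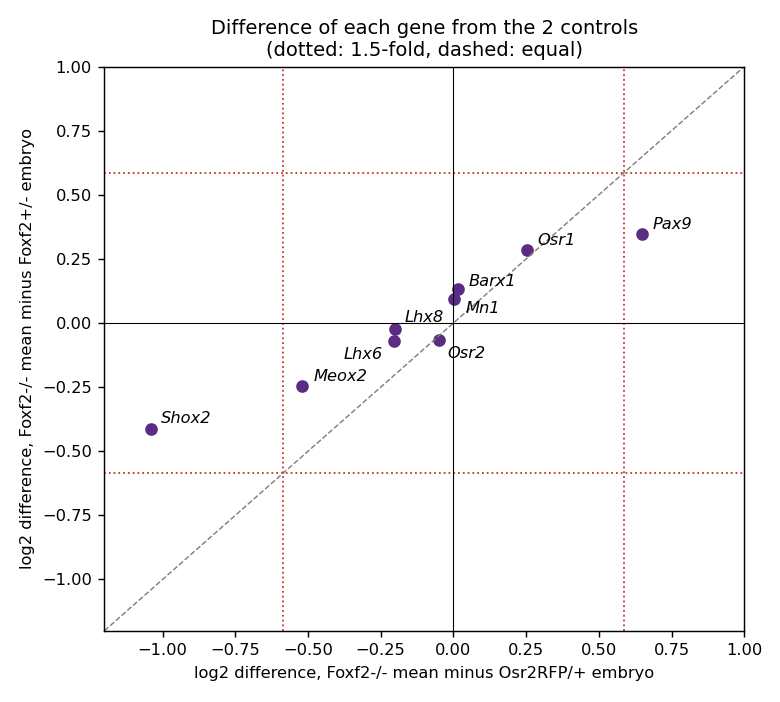
Log2 difference of the Foxf2-/- mean from the Osr2RFP/+ embryo (horizontal axis) and from the Foxf2+/- embryo (vertical axis) for each gene, with dotted lines at 1.5-fold. Shox2 and Pax9 are past a vertical dotted line, no gene is past a horizontal one, and Barx1, Mn1 and Osr2 lie near the origin.

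All 9 genes were among the more abundant transcripts of the sorted cells, and their order differed between the groups. Over the 4 embryos Barx1 ranked 139 of 11128 genes by mean FPKM, Osr2 203, Pax9 261, Lhx6 314, Shox2 408, Osr1 594, Lhx8 631, Meox2 1100 and Mn1 1170. In the controls the order by mean FPKM was Barx1 (208.5 ± 11.9), Osr2 (144 ± 1.11), Lhx6 (97.8 ± 6.50), Shox2 (93.5 ± 28.4), Pax9 (90.7 ± 13.4), Lhx8 (53.5 ± 4.60), Osr1 (48.6 ± 0.75), Meox2 (37.5 ± 5.01) and Mn1 (31.0 ± 1.38; SD, n = 2 each). Each control SD is the spread between the Osr2RFP/+ embryo and the heterozygote. The values of Lhx6, Shox2 and Pax9 overlap in the controls, and the other neighbours do not. In the mutants Barx1 (220.0 ± 26.5) and Osr2 (138 ± 13.1) were still first, followed by Pax9 (127 ± 0.14) and Lhx6 (88.9 ± 1.64). Then came Osr1 (58.8 ± 8.53), Shox2 (55.7 ± 11.3) and Lhx8 (49.5 ± 3.70), and last Mn1 (32.1 ± 2.58) and Meox2 (28.6 ± 0.16). Values of Shox2 overlap those of Osr1 and of Lhx8, though the order Osr1, Shox2, Lhx8 held within each mutant. Pax9 thus stood clear of Lhx6 and Shox2 in the mutants, and Mn1 and Meox2 had changed places.

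Because FPKM is per length, the level of one gene can be set against another within the same embryo, where a difference in scaling between libraries drops out. The ratio of anterior Shox2 to posterior Barx1 was 0.52 in the Osr2RFP/+ embryo, 0.37 in the heterozygote, and 0.24 and 0.27 in the mutants, a mean difference of -0.80 on the log2 scale. Against Mn1 it was 3.54 and 2.44 in the controls and 1.57 and 1.87 in the mutants, also without overlap (-0.78). Against Meox2 the ratio of Shox2 was 2.76 and 2.16 in the controls and 1.66 and 2.23 in the mutants. Here the groups overlap, since Shox2 and Meox2 were both lower in the mutants, and the mean log2 difference was -0.34.

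Other pairs were compared in the same way. Pax9 was at 0.72 times the level of Shox2 in the Osr2RFP/+ embryo and at 1.36 times in the heterozygote, and it was at 2.67 and 2.00 times in the mutants. The ratio of Barx1 to Meox2 was 5.28 and 5.88 in the controls and 6.99 and 8.36 in the mutants. The ratio of Osr2 to Osr1 was 2.90 and 3.00 in the controls and 2.44 and 2.27 in the mutants, also without overlap. Lhx6 and Lhx8 kept a ratio of 1.68 to 1.92 in all 4 embryos, with the mutants at either end. These ratios are descriptions of 4 embryos, with no test, and how often other gene pairs separate was not computed. Since Pax9 was higher and Shox2 lower in both mutants than in both controls, their ratio had to separate the groups. With Barx1 and Mn1 overlapping between the groups, the ratios of Shox2 to them mostly restate the lower Shox2.

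**Figure D4:**
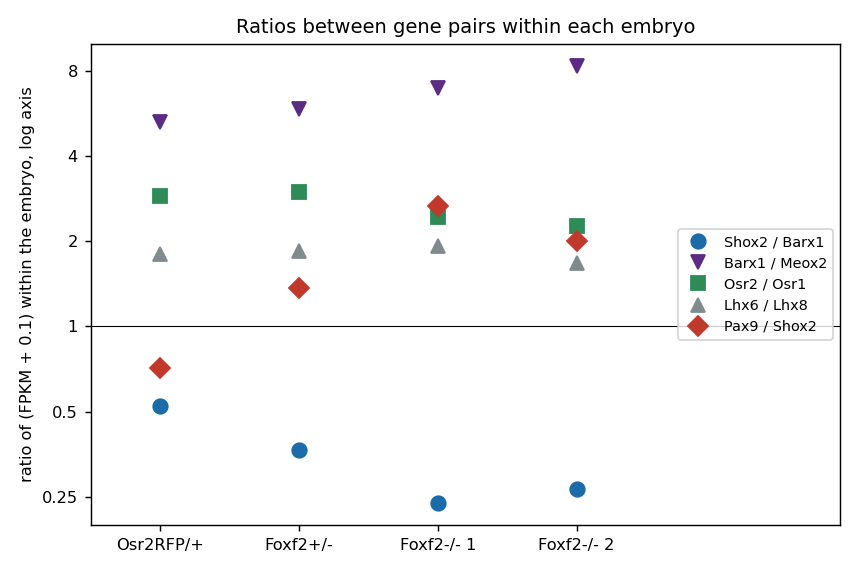
Ratios between the levels of 5 gene pairs within each embryo (vertical axis, log scale, of FPKM + 0.1). Shox2 / Barx1 is lower and Pax9 / Shox2 higher in both Foxf2-/- embryos than in both controls, and Lhx6 / Lhx8 overlaps between the groups.

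The sequence just upstream of the start was available from RefSeq (GRCm38.p6) for 6 of the 9 genes in 8 windows. All 8 matched mm9 once and without a mismatch in the region around their own gene, and the rest of the genome was not searched. The windows of the genes that differed most are shown because Foxf2 encodes a forkhead protein and the letters of a forkhead motif could be looked for in them. Each gives the 250 bases before the start, read on the strand of the gene, with the motif match in capitals.
Shox2 (chr3:66785694-66785943, minus strand, in an intron of Rsrc1 on the opposite strand): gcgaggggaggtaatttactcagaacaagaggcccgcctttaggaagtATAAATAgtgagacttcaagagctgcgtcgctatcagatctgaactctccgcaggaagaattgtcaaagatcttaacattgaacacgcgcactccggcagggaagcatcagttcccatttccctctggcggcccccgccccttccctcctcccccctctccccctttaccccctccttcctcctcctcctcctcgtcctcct
Meox2 (chr12:37834877-37835126, plus strand, outside annotated transcripts): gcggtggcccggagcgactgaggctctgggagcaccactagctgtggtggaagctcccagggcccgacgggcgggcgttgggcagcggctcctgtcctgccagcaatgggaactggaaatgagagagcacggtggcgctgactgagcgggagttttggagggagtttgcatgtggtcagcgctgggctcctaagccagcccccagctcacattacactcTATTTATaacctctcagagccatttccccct
Pax9 (chr12:57796208-57796457, plus strand, in an intron of a longer Pax9 transcript): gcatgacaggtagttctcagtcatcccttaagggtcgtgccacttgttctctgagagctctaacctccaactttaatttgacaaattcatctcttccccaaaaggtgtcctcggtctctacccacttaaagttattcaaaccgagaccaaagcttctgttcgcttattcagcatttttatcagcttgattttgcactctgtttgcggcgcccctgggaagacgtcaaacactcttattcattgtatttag

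The letters GTAAACA, searched on both strands, were in 3.17% of 32851 windows of the same length over all genes. Its variant GTAAATA was in 2.73% of them, ATAAACA in 4.16% and ATAAATA in 5.17%, and 13.6% held at least 1 of the 4. The Shox2 window holds ATAAATA from -202 to -196, counted from the start, and the Meox2 window holds it on the opposite strand from -31 to -25. Both matches overlap the letters TATAAA, which 12.4% of windows hold. None of the letters was in the windows of Pax9, Barx1, Lhx8 or Lhx6. A match is a string of letters and no measured binding site, and no binding data were analysed here. The window of Pax9 ends at a start that lies upstream of that of the RefSeq entry in the expression tables.

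Lhx6 was the only one of the 9 genes with more than 1 RefSeq entry, and its 4 entries differ in 2 features, the start and 1 coding exon. The exon has 104 bases (chr2:35942888-35942991, minus strand), leaves a remainder of 2 on division by 3, and so shifts the reading frame of what follows. It is shown because its share differed between the groups, on the strand of the gene and with no part marked.
Lhx6 alternative exon: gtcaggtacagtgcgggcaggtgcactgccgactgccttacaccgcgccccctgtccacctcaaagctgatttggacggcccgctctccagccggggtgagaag

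The entry with the downstream start that skips the exon was the main one, at 80.0 and 70.7 FPKM in the control embryos and 64.9 and 63.6 FPKM in the mutants. The entry with the downstream start that includes the exon was at 19.9 and 19.0 FPKM in the control embryos and 19.4 and 21.1 FPKM in the mutants. The first of these was lower in the mutants and the second overlapped between the groups. Entries with the exon made up 19.96% and 21.3% of Lhx6 in the controls and 23.15% and 24.96% in the mutants (20.6% ± 0.94 and 24.1% ± 1.28; SD, n = 2 each). Shares did not overlap, and the heterozygote was again between the other genotypes, but how often such shares separate in other genes was not computed. Read assignment between entries that share most of their sequence is an estimate, and the tables give no error for it, so no test was made.

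The 2 starts of the Lhx6 entries are 1348 bases apart. The sequence before each is given for comparison, since nearly all Lhx6 FPKM was assigned to the downstream one. A further RefSeq window of Lhx6 ends at a start between them (chr2:35960053), where no entry begins, and it is not shown.
Lhx6 upstream start (chr2:35960929-35961178, minus strand, outside annotated transcripts): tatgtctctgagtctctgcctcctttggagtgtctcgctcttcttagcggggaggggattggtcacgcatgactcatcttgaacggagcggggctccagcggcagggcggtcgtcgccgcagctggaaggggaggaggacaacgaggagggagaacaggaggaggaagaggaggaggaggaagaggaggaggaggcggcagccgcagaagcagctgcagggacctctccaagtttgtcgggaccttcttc
Lhx6 downstream start (chr2:35959581-35959830, minus strand, in the first intron of the longer transcripts): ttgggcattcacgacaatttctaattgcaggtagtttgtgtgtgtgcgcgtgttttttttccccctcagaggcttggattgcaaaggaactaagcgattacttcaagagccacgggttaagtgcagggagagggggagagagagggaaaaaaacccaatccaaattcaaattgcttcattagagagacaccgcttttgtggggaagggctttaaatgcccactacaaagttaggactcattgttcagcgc

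Entries from the upstream start were at 2.42% and 3.71% of Lhx6 in the controls and 6.33% and 3.48% in the mutants. The groups overlap, with mutant 1 above the other 3 embryos.

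**Figure D5:**
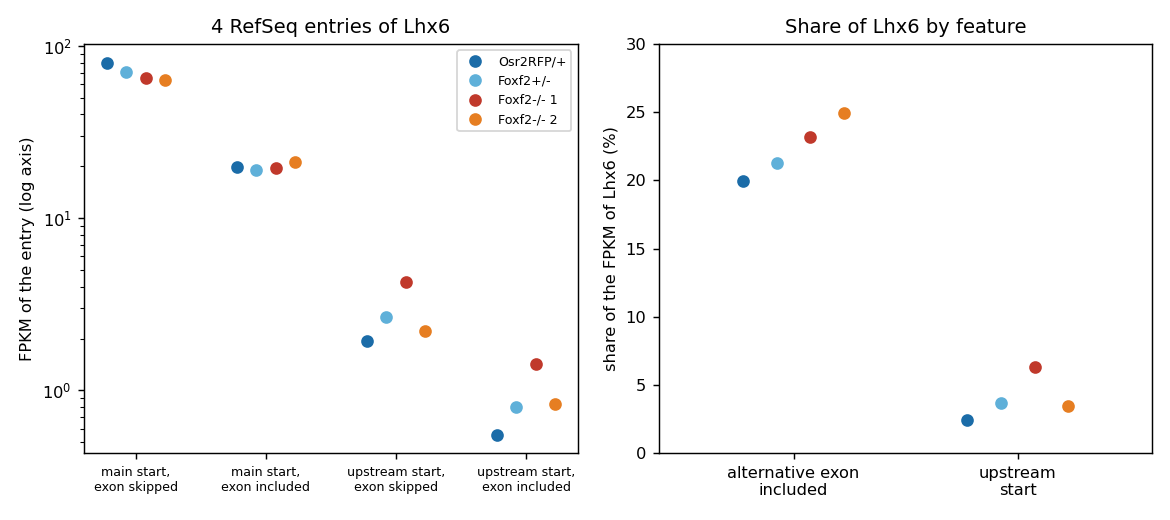
Left, FPKM of the 4 RefSeq entries of Lhx6 in each embryo (log axis); right, the share of Lhx6 FPKM in entries with the alternative exon and in entries from the upstream start. The share with the exon is 19.96% and 21.3% in the control embryos, and 23.15% and 24.96% in the mutants, while the share of the upstream start overlaps.

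The genes around these regulators were read from 5 lists: anterior mesenchyme, posterior mesenchyme, oral and nasal mesenchyme, partners and targets of the 9 genes, and their family relatives. Beside the 9 genes, the lists hold 34 genes, of which 17 were tested. Foxf2 was the only one called, and their median log2 fold change was -0.07, beside -0.08 over all genes. Of the 17, 4 were higher and 4, Foxf2 among them, lower in both mutants than in both controls, beside 9.88% and 35.8% of all genes. None of the 5 anterior genes, Shox2 included, was called (median -0.13), and 2 were lower and none higher without overlap, where 35.8% of all genes were lower and 9.88% higher. Fgf10, a growth factor of the oral-side mesenchyme that signals to the epithelium, was at 6.55 and 5.15 FPKM in the control embryos and 4.73 and 3.63 FPKM in the mutants, and its log2 fold change was -0.48 (limma adjusted p-value 0.333). Like Shox2, it was lower in both mutants. Bmp4, a ligand downstream of the homeodomain protein Msx1 in the anterior shelf, was at 40.3 and 41.9 FPKM against 34.8 and 40.5 FPKM (-0.13, limma adjusted p-value 0.616). Msx1 itself was at 7.17 and 7.91 FPKM against 7.72 and 8.51 FPKM (0.10, limma adjusted p-value 0.724), and the ligand Bmp2 was at 3.76 and 2.98 FPKM against 2.66 and 3.47 FPKM (-0.13, limma adjusted p-value 0.788). These 3 genes overlap between the groups.

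None of the 4 posterior genes (Barx1, Meox2, Mn1 and Tbx22) was called either (median -0.09), and 2 were lower and none higher without overlap, again beside 35.8% and 9.88% of all genes. Tbx22, a T-box gene mutated in X-linked cleft palate and placed downstream of Mn1, was at 5.05 and 5.08 FPKM in the control embryos and 4.56 and 4.13 FPKM in the mutants. Both mutants were lower, as with Meox2, and the log2 fold change was -0.22 (limma adjusted p-value 0.474). Of the 6 oral and nasal genes, 1 was called (Foxf2), with a median of -0.08. Foxf1a, the gene for the related forkhead protein, was at 77.7 and 98.5 FPKM in the control embryos and 77.4 and 91.6 FPKM in the mutants, so that the groups overlap (-0.06, limma adjusted p-value 0.896). Dlx5, a homeobox gene of the nasal side, was at 5.81 and 6.50 FPKM in the control embryos and 8.50 and 8.92 FPKM in the mutants (0.50 ± 0.11 SE, limma adjusted p-value 0.189). Its mutant values were higher in both embryos, by about as much on the log2 scale as those of Pax9. Fgf7, a nasal-side growth factor, was near the limit of the filter at 1.65 and 0.81 FPKM against 1.02 and 1.13 FPKM (-0.11, limma adjusted p-value 0.921).

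Partners and targets were 13 genes, 11 of them tested, with none called and a median of 0.06. Of the 11, 3 were higher and 3 lower without overlap, beside 9.88% and 35.8% of all genes. LIM homeodomain proteins such as Lhx6 and Lhx8 work through the adaptor proteins Ldb1 and Ldb2, and LIM-only proteins bind the same adaptors. Lmo3, which encodes a LIM-only protein, was at 1.21 and 1.41 FPKM in the control embryos and 3.12 and 3.79 FPKM in the mutants. It was the only gene of that list past 1.5-fold against both controls, and its log2 fold change was 1.33 ± 0.18 (SE), with an adjusted p-value of 0.0845 from limma. Ldb2, which was singled out after its values were seen, was at 13.9 and 11.6 FPKM in the control embryos and 16.9 and 18.5 FPKM in the mutants (0.47 ± 0.11 SE, limma adjusted p-value 0.229). Ldb1 was at 44.5 and 44.9 FPKM against 34.4 and 42.7 FPKM (-0.22, limma adjusted p-value 0.462; -0.064 without mutant 1 and -0.38 without mutant 2), and Lmo4 at 45.1 and 46.2 FPKM against 38.8 and 49.0 FPKM (-0.07, limma adjusted p-value 0.845). Neither adaptor passed the test. Cdkn1c, which encodes a cell cycle inhibitor, was at 241 and 146 FPKM in the control embryos and 185 and 211 FPKM in the mutants, with the mutants between the controls (0.07, limma adjusted p-value 0.914).

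The closest relatives of the 9 genes were low or listed at 0 in the sorted cells. Of the 16 relatives listed, 15 were in the tables, 13 stayed under 1 FPKM in every embryo, and 2 of those (Lhx1 and Lhx3) were listed at 0 throughout. Pax3 was the only relative tested, at 1.44 and 2.56 FPKM in the control embryos and 1.47 and 1.40 FPKM in the mutants (-0.40, limma adjusted p-value 0.569). That value rests on the heterozygote, since it was -0.0058 without it and -0.79 without the Osr2RFP/+ embryo. Pax1, the nearest relative of Pax9, was at 0.067 and 0.17 FPKM in the control embryos and 1.15 and 1.36 FPKM in the mutants. It was higher in both mutants, as Pax9 was, but its mean was below the filter of 1 FPKM, and with no filter its log2 difference was 2.66 with an adjusted p-value of 0.366 from limma. Meox1 was at 0.14 and 0.49 FPKM against 0.25 and 0.59 FPKM, and Lhx9 at 0.13 and 0.33 FPKM against 0.28 and 0.22 FPKM, with overlap in both.

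Shox2, Meox2 and Pax9 ranged over more than 0.5 on the log2 scale across the embryos, and for these the genes with the most similar pattern were sought among 6908 genes with a mean of at least 5 FPKM, by the root mean square difference of log2 values centred on their mean over the 4 embryos. Nearest to Shox2 were Lynx1 (0.083), at 12.5 and 8.23 FPKM in the control embryos and 6.06 and 7.56 FPKM in the mutants, and the Wnt receptor gene Fzd4 (0.102), at 7.52 and 5.46 FPKM in the control embryos and 3.24 and 3.87 FPKM in the mutants. Nearest to Meox2 were Vps16 and Nup37 (0.012 each), and nearest to Pax9 were Egfl6 (0.018) and Mfhas1 (0.034). Egfl6 was at 56.5 and 69.1 FPKM in the control embryos and 87.7 and 90.6 FPKM in the mutants. Likeness over 4 points is a description, and for Shox2 the nearest gene was farther away than for Meox2 or Pax9.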

How the data were processed

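RNA from RFP-positive palatal mesenchyme cells of 4 E13.5 embryos (2 Foxf2-/-, 1 Foxf2+/- and 1 Osr2RFP/+) had been sequenced in 1 library each. The authors mapped the reads, which were single-end, with Tophat and Bowtie on mm9 (Bowtie 0.12.7 in the submitters' processing notes) and deposited FPKM for 28107 RefSeq entries per embryo, scaled to mapped fragments and transcript length, without pooling. The version of the program that made the FPKM is not given in the sources used here. The deposited signal, an average read coverage of each entry, is proportional to FPKM within an embryo, so its ratio to FPKM gives relative depth (1, 1.19, 1.02 and 1.14 in the Osr2RFP/+, Foxf2+/- and 2 Foxf2-/- libraries). Depth in reads is unknown, so no interval based on counts is given, and the confidence limits planned for single transcripts were not used because the tables hold none.

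Entries shorter than 200 bases or without a usable estimate in some embryo were left out, and the rest were summed by symbol (21282 symbols). Genes with a mean of at least 1 FPKM over the 4 embryos (11128) were tested on log2(FPKM + 0.1), which understates changes of low genes. limma 3.58.1 in R 4.3.3, with a variance trend, compared Foxf2-/- with control embryos, with Benjamini-Hochberg adjustment over all genes tested. Only the 4 embryos measure the spread, and with 1 embryo for each control genotype a difference between controls has no replicate check. The control SDs and the limma standard errors and intervals therefore include any difference between the control genotypes. The authors' own test works on reads and could not be used on FPKM. The script was tested on simulated data. Sums and counts were made in Python 3.11.15 (pandas 2.3.3, numpy 2.4.6), exact permutation tests were two-sided and used scipy 1.17.1, and figures were drawn with matplotlib 3.10.9.

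The 9 genes and the gene lists were chosen with earlier results of these data known. Besides the 9 genes and Foxf2, the genes named were those of each list that limma called or that passed 1.5-fold against both controls, up to 4 others of each list with the highest mean FPKM, and the 2 most alike genes of a gene ranging over more than 0.5. Ldb2 and the facial mesenchyme markers Prrx1, Twist1, Col3a1, Col1a1 and Alx4 were named outside that rule. The 15 alternatives varied the pseudocount, filter, entries, scaling, variance model, design and embryos. Coordinates and exons are from the tables and GENCODE M1 on mm9, and upstream sequences from RefSeq. Protein sequences and 3 upstream windows (Mn1, Osr1 and Osr2) were not analysed here.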

Additional observations from a re-analysis of the deposited data

How the results depend on the processing

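None of the 9 genes was called under any of the 15 alternatives, and the lowest adjusted p-value from limma was 0.0676, for Pax9 with the number of null alleles as a linear term. The ranges of the log2 fold change were -1.04 to -0.41 for Shox2, -0.52 to -0.25 for Meox2, 0.35 to 0.65 for Pax9 and 0.12 to 0.42 for Osr1, with adjusted p-values from limma of 0.0906 to 0.833, 0.116 to 0.842, 0.0676 to 0.746 and 0.222 to 0.842, and Lmo3 ranged from 0.94 to 1.53 (0.0573 to 0.366). Of 135 values of the 9 genes, 5 reversed: Barx1 (-0.050) and Mn1 (-0.033) without mutant embryo 2, and Osr2 with median-of-ratios scaling (0.022), quantile normalization (0.016) and without mutant embryo 1 (0.039). Among the other genes, Foxf1a reversed with those scalings (0.025 and 0.026), with the linear term (0.064), without the heterozygote (0.115) and without mutant 1 (0.066), Bmp2 without the Osr2RFP/+ embryo (0.028) and without mutant 1 (0.052), Fgf7 with quantile normalization (0.011) and without the Osr2RFP/+ embryo (0.36), Cdkn1c with the linear term (-0.18), without the heterozygote (-0.29) and without mutant 2 (-0.023), and Lmo4 with both scalings (0.012 and 0.0087) and without mutant 1 (0.10). As each embryo was left out, the ranges were -0.050 to 0.196 for Barx1, -0.033 to 0.130 for Mn1, -0.155 to 0.039 for Osr2, -0.227 to 0.115 for Foxf1a, -0.322 to 0.052 for Bmp2, -0.574 to 0.364 for Fgf7, -0.288 to 0.432 for Cdkn1c -0.236 to 0.10 for Lmo4, -0.204 to -0.068 for Lhx6, -0.199 to -0.024 for Lhx8, -0.378 to -0.064 for Ldb1, -0.790 to -0.0058 for Pax3, -0.238 to -0.021 for Bmp4, -0.664 to -0.290 for Fgf10 and 0.034 to 0.175 for Msx1.

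Over all genes, 7 calls became 13 with a pseudocount of 1, 0 with no filter, 27 with all entries summed, 13 with median-of-ratios scaling, 12 with quantile normalization, 2 without a variance trend, 19 with a mean for each genotype, 18 with the linear term, and 7 to 38 as each embryo was left out (38 without the heterozygote). The single call in the gene lists, Foxf2, became 0 with no filter, without a trend, with a robust fit and with the linear term (adjusted p-values from limma of 0.162, 0.0522, 0.107 and 0.0596). The cause of these changes was not tested. The 5 of 9 genes without overlap became 6 to 8 as each embryo was left out (8 without mutant 1), when 68.2% to 76.2% of all genes did not overlap either, because 1 embryo then stands against 2. The count past 1.5-fold against both controls became 0 to 2 as each embryo was left out. It was 2 without the heterozygote, beside 5.09% of all genes, and 1 without mutant 2, beside 2.14%. With all 4 embryos it was 2 at a cutoff below 1.5-fold and 0 at 2-fold. The share of all genes past those other cutoffs was not computed, so the rise to 2 at the lower one cannot be judged. No paired analysis was made because the labels pair no mutant with a control.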
